A study of Homo sapiens with 6 samples.

Results

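The 31 genes described here are MDM2 and MDM4, the main negative regulators of p53, and established direct targets of p53, with CDKN1A and the BCL2 family left out. They were chosen by gene name from a list of symbols that was drawn up with earlier results of these data known. All 31 were found among the 57819 genes of the deposited table. All 31 passed the filter on low values, which 19048 genes passed, so that no member had to be set aside.

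The libraries came from IMR90 ER:Ras cells, an established line of human lung fibroblasts that carries a Ras oncogene under the control of 4-hydroxytamoxifen (4OHT). All 6 libraries were from cells given 200 nM 4OHT for 3 days. In this model 4OHT switches on Ras and leads to senescence, a lasting arrest of growth. The control group received a scrambled siRNA (siSCR) and the knockdown group an siRNA that targets sin-lncRNA, a long noncoding RNA, with 3 libraries in each group. The knockdown columns of the table are named si1.3, where the sample labels say si1, and what the ending stands for is not explained. PolyA RNA was sequenced, and the comparison asked what depletion of sin-lncRNA changes in cells with Ras switched on. How far these cells had become senescent after 3 days was not examined here. Cells without 4OHT were not analysed here, so the values say nothing of how far Ras itself had raised these genes.

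p53 is a transcription factor that is held at a low level by MDM2, a ubiquitin ligase that marks it for destruction, and by the related MDM4, which binds and masks its activating region. DNA damage or an active oncogene frees p53 from this control, and it then binds its response elements and switches on genes for growth arrest, DNA repair, cell death and metabolic adjustment. MDM2 is itself a target, so the pathway restrains itself. In fibroblasts with an active Ras oncogene, p53 is one of the proteins that hold the senescent arrest in place.

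A p53 response element consists of a pair of 10-base p53 half-sites set apart by a short spacer. RefSeq promoter windows (GRCh38.p14, from 250 bases before to 50 bases after a transcript start) were matched by symbol for 22 of the 31 members and were searched for such pairs, with a spacer of at most 13 bases. The consensus half-site reads the same on both strands, so that a search of 1 strand covers both. With at most 2 mismatches over the 20 bases, outside the invariant C and G, a pair was found for 5 members. They are shown because they are the closest matches to the element through which p53 acts, with the half-sites in capitals.
MDM2: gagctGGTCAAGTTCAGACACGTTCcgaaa
FAS: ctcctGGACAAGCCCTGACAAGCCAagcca
DDB2: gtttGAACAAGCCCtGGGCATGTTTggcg
AEN: gagccGGGCTTGCCCGGGCATGTGGgagct
FDXR: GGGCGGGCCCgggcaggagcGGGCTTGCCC

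The MDM2 stretch lies at chr12:68808918-68808947 on the plus strand, in an intron of the gene in GENCODE 29 and upstream of an internal transcript start. The FAS stretch is at chr10:88991304-88991333 (plus strand), in sequence that GENCODE 29 annotates as exon of at least 1 FAS transcript and that also lies within the span of ACTA2. The DDB2 stretch is at chr11:47214975-47215003 (plus strand) and the AEN stretch at chr15:88621301-88621330 (plus strand), both in annotated exon. The FDXR stretch is at chr17:74872996-74873025 (minus strand), also in annotated exon, with a spacer of 10 bases. The DDB2 pair matched the consensus at every base (0 mismatches), and the other 4 pairs had 2 mismatches each.

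With 3 mismatches allowed, pairs were also found for GDF15, SESN1, ZMAT3 and PLK2, and these looser matches are shown for comparison.
GDF15: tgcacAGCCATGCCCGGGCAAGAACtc
SESN1: cgtctGGACAAGTCTCCACAAGTCAgaaat
ZMAT3: ccGGGCCTGCTCcgccaaGCACATGCGCag
PLK2: acaAGACTTGCTTcccGGCCACGCGCgct

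These matches are at chr19:18386181-18386207 (GDF15, plus strand), chr6:109009013-109009042 (SESN1, minus strand), chr3:179071865-179071894 (ZMAT3, minus strand) and chr5:58460193-58460221 (PLK2, minus strand). Among all 27305 genes with a RefSeq window, 3.62% held a pair with at most 2 mismatches and 15.3% one with at most 3. For the members with a window the shares were 22.7% (5 of 22) and 40.9% (9 of 22). Counted by window, the shares at 2 mismatches were 2.93% of 35116 windows and 17.6% of the members' 34. The members were chosen as p53 targets, so their higher share is a description of that choice, and the mismatch limit was set after the counts at each limit had been seen. A match is a stretch of letters and not a measured binding site, and response elements outside these windows were not searched.

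Reads in genes ran from 30271192 to 50913672 in the controls and from 22117324 to 27882280 in the knockdowns, so the knockdowns were all read less deeply. The targeted lncRNA, listed as RP4-530I15.6, was at 3.70, 4.73 and 4.09 RPM (reads scaled to library size) in the controls and at 0.493, 0.640 and 0.534 in the knockdowns. This fall was -2.86 on the log2 scale (SE 0.18; limma adjusted p = 7.9e-07). Fibroblast markers summed to 15548 to 16771 RPM in the controls and 11203 to 11609 in the knockdowns, and all 9 were detected, COL1A1, COL1A2 and VIM most strongly. Singly, 4 of them rose (LUM, PDGFRA, COL3A1 and THY1) and 5 fell (COL1A1, COL1A2, PDGFRB, VIM and DCN) at a limma adjusted p under 0.05. Summed markers of other cell types stayed at or below 8.84 RPM for endothelial, 6.61 for epithelial, 2.03 for neural and 0.427 for immune genes in every library. KRT5 had no read in any library. The epithelial sum was lower in the knockdowns (2.02 to 2.74) than in the controls (4.20 to 6.61), as was the neural sum (1.34 to 1.84 against 1.91 to 2.03). Most of the epithelial sum was KRT19, at a mean of 4.92 RPM in the controls and 1.94 in the knockdowns. The endothelial sum was slightly higher in the knockdowns (7.91 to 8.84 against 6.99 to 7.90). It covers 4 of the 5 listed markers, because PECAM1 was not found by name. Most of it was TEK, at a mean of 5.72 RPM in the controls and 5.96 in the knockdowns. The part of these genes in the results was not tested. Nothing in the labels says that libraries came from separate cultures, so p-values measure the spread between these libraries.

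Most of the 31 listed p53 regulators and targets were higher after knockdown of sin-lncRNA. The list was drawn up with earlier results of these data known, so its shares are a description of the listed genes. Of the 31 members 20 rose, 4 fell and 7 did not pass the test (limma on log2 values, Benjamini-Hochberg adjusted p under 0.05 over all genes tested). In percent, 64.5% of members rose, where 17.5% of all genes tested and 22.2% of the protein-coding genes did. The 12.9% of members that fell compare with 23.5% of all genes tested and 26.4% of the protein-coding genes. The median log2 fold change of the members was 0.34, beside -0.04 for all genes tested, and single members ran from -0.46 to 1.43. For 21 members all 3 knockdown libraries lay above all 3 controls, and for 4 they lay below (22.8% and 28.3% of all genes tested). A rise of at least 0.5 on the log2 scale was reached by 12 members, against 6.22% of all genes tested. All 4 falls were smaller than that, so that 0 members fell by 0.5 or more (limma), against 7.65% of all genes tested. After thinning of all libraries to equal depth, 20 members rose and 4 fell, and 3106 of all genes tested rose and 4216 fell. In RNA from whole cultures, a change in the share of cells that express a gene and a change in RNA per cell cannot be told apart.

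**Figure D1:**
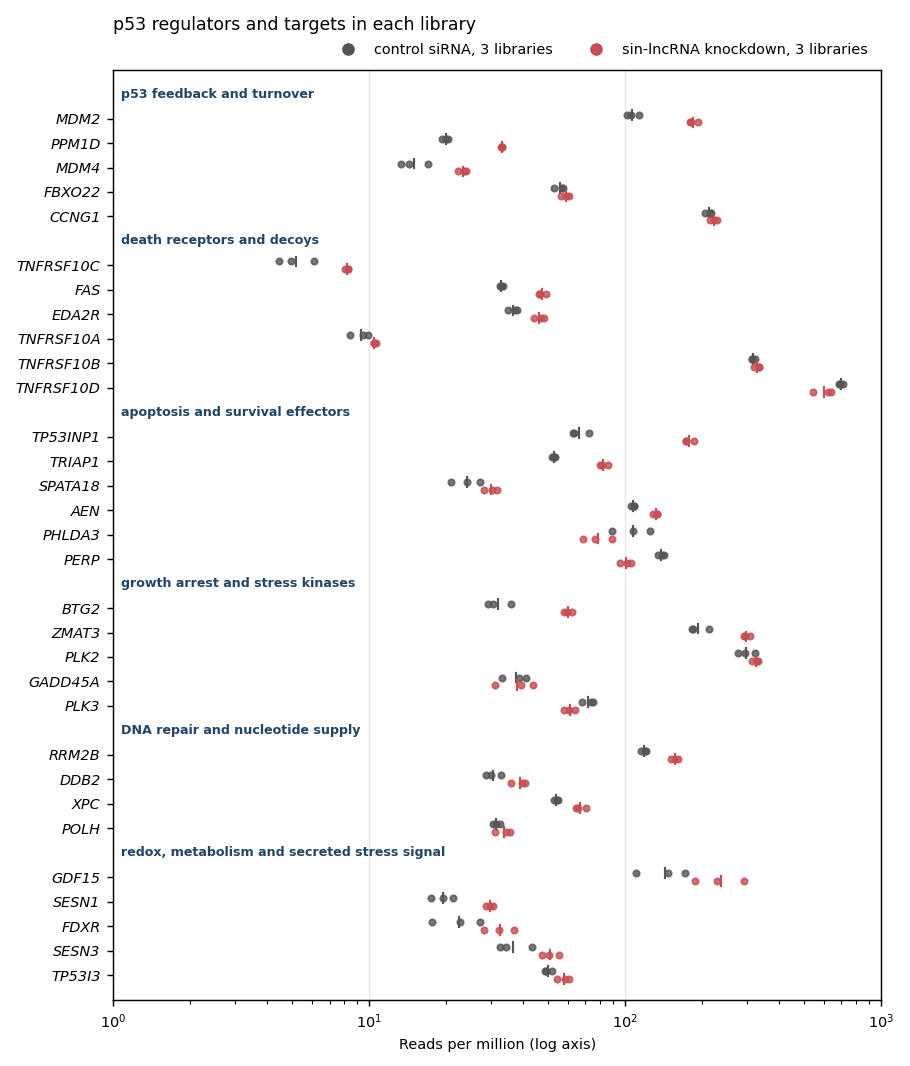
RPM (log axis) of the 31 genes in each of the 6 libraries, by functional group; points are libraries and vertical ticks are the group means (n = 3). The control and knockdown points are fully apart for 25 of the 31 genes, as in TP53INP1, BTG2 and MDM2, and overlap in GADD45A, CCNG1 and FBXO22.

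Of the 5 genes that feed back on p53 or its turnover 3 rose, and these were the inhibitors MDM2, MDM4 and PPM1D. MDM2 (ENSG00000135679.17; chromosome 12, 69201956 to 69239214 in the table's hg19 coordinates, plus strand) was at 113, 102 and 105 RPM in the controls and at 193, 181 and 180 in the knockdowns. The groups were wide apart, and the log2 fold change was 0.80 (SE 0.051; limma adjusted p = 1.1e-06). PPM1D (chromosome 17, 58677544 to 58741849), the phosphatase WIP1 that switches off the damage kinases and p53, went from 20.4, 19.3 and 19.9 RPM to 33.1, 33.1 and 32.8. The 3 knockdown libraries were nearly alike, and the log2 fold change was 0.73 (SE 0.055; limma adjusted p = 3.0e-06). MDM4 (chromosome 1, 204485511 to 204542871) was at 17.0, 13.3 and 14.3 RPM in the controls and at 23.9, 22.3 and 23.4 in the knockdowns, a log2 fold change of 0.65 (SE 0.088; limma adjusted p = 0.00019). MDM4 had the lowest control level of the 31 genes per length, 1.35 RPM per kilobase of exon, against 8.01 for MDM2.

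A pair of genes in this group did not pass the test. CCNG1, which encodes cyclin G1, a partner of a phosphatase that acts on MDM2, was at 206 to 217 RPM in the controls and 215 to 229 in the knockdowns, and the ranges overlapped. The log2 fold change was 0.07 with a 95% interval of -0.03 to 0.16. With quantile normalization CCNG1 was at 0.12 and passed the test (limma adjusted p = 0.035; range over the alternatives up to 0.58). FBXO22, a subunit of a ubiquitin ligase that acts on p53 complexes, was at 52.7 to 57.4 RPM in the controls and 56.2 to 60.3 in the knockdowns. Its log2 fold change was 0.08 (95% interval -0.04 to 0.19), and -0.08 once a GC and length trend had been removed, so that its direction is not settled. MDM2 and FBXO22 share sequence with other annotated genes: 12% and 19.2% of the 50-base words of their longest transcripts also occur in transcripts of other genes, so part of their reads is uncertain.

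**Figure D2:**
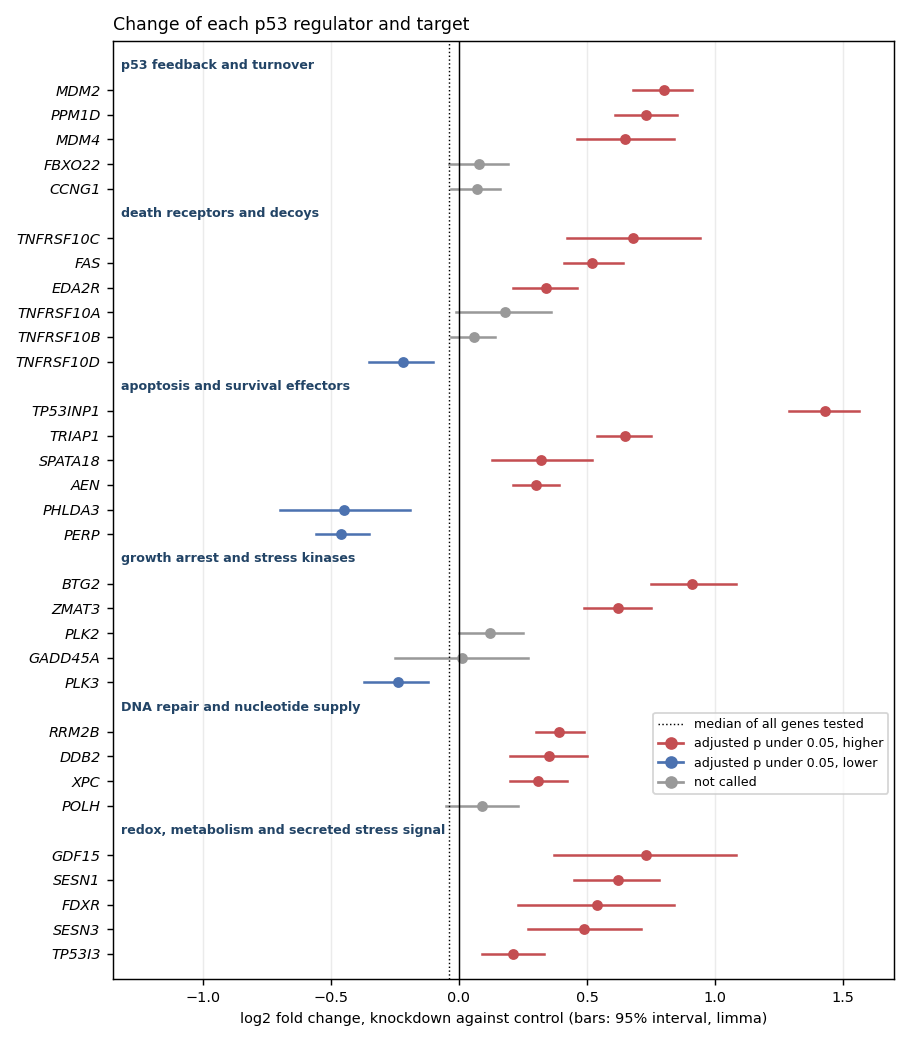
Log2 fold change of each gene in knockdown against control with its 95% interval from limma; colour marks genes called higher, called lower or not called, and the dotted line is the median of all genes tested (-0.04). The 20 genes called higher are spread over every functional group, and the 4 called lower are PERP, PHLDA3, PLK3 and TNFRSF10D.

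The 6 receptors grouped here under death receptors and decoys were split. Of these 3 rose (TNFRSF10C, FAS and EDA2R) and 1 fell (TNFRSF10D). FAS, the receptor for FAS ligand, was at 32.5, 32.8 and 33.2 RPM in the controls and at 49.1, 46.1 and 46.6 in the knockdowns. FAS thus rose by 0.52 on the log2 scale (SE 0.051; limma adjusted p = 1.8e-05); 8.9% of its exon bases lie opposite exons of another gene. EDA2R, the X-linked receptor for an ectodysplasin isoform, went from 37.1, 37.8 and 34.9 RPM to 48.0, 46.9 and 43.9, a log2 fold change of 0.34 (SE 0.057; limma adjusted p = 0.00078).

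The receptors for the ligand TRAIL sit side by side on chromosome 8, between 22877646 and 23082639 in the table's coordinates, and did not move as a block. TNFRSF10A and TNFRSF10B carry a death domain and pass the signal on, while TNFRSF10C and TNFRSF10D are decoys that bind TRAIL without a working death domain. TNFRSF10B, with a control level per length of 61.2 RPM per kilobase against 3.13 for TNFRSF10A, was at 323, 312 and 313 RPM in the controls and at 333, 332 and 320 in the knockdowns, a log2 fold change of 0.06 (95% interval -0.03 to 0.14). TNFRSF10A was at 8.40 to 9.89 RPM in the controls and 10.4 to 10.6 in the knockdowns. Its groups did not overlap, but the log2 fold change of 0.18 (95% interval -0.01 to 0.36) did not pass the test (limma adjusted p = 0.11). For TNFRSF10A, 10.6% of the 50-base words are shared with other annotated genes, and 16.6% of the exon bases lie opposite other exons.

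The decoys moved in opposite directions. TNFRSF10D had the highest control level per length of the 31 genes, 197 RPM per kilobase of exon, and fell from 686, 693 and 710 RPM to 636, 618 and 542. This was a log2 fold change of -0.22 (SE 0.057; limma adjusted p = 0.0096), and the call was lost with untrended eBayes (limma adjusted p = 0.067, the highest over the alternatives; lowest 0.0015). TNFRSF10C, at 2.77 RPM per kilobase the second lowest, rose from 6.11, 4.96 and 4.45 RPM to 8.29, 8.28 and 8.05, a log2 fold change of 0.68 (SE 0.12; limma adjusted p = 0.00093). It rests on 149 to 226 reads per library, and 39.7% of its 50-base words are shared with other annotated genes, so its level is uncertain. No test of the difference between the decoys was made.

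All 6 genes listed as effectors of cell death or survival changed, 4 upward and 2 downward. TP53INP1 (ENSG00000164938.9; chromosome 8, 95938200 to 95961639, minus strand), a stress protein that aids p53 phosphorylation and autophagy, had the largest rise of the 31 genes. It was at 72.5, 62.6 and 63.0 RPM in the controls and at 186, 173 and 173 in the knockdowns, a 2.69-fold difference (log2 fold change 1.43, SE 0.061; limma adjusted p = 8.2e-08). It ranked 108 from the top among the 19048 genes by log2 fold change. TRIAP1, a small mitochondrial protein that restrains apoptosis, went from 51.7, 52.6 and 53.1 RPM to 79.8, 85.7 and 81.4, a log2 fold change of 0.65 (SE 0.047; limma adjusted p = 2.5e-06). AEN, a nuclease that takes part in apoptotic DNA breakdown, went from 105, 108 and 108 RPM to 129, 133 and 133, a log2 difference of 0.30 (SE 0.041; limma adjusted p = 0.00019). AEN had the smallest pooled within-group SD of the members, 0.023 on the log2 scale.

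SPATA18, which encodes a protein of mitochondrial quality control also known as Mieap, was at 27.0, 20.9 and 24.2 RPM in the controls and at 30.1, 31.6 and 28.2 in the knockdowns. Its log2 fold change of 0.32 (SE 0.088; limma adjusted p = 0.013) lost its call without knockdown replicate 2 and with untrended eBayes (range of adjusted p over the alternatives 0.0027 to 0.064).

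The genes that fell in this group were PERP and PHLDA3. PERP, a membrane protein of desmosomes that p53 induces in apoptosis, was at 139, 134 and 142 RPM in the controls and at 102, 105 and 95.6 in the knockdowns. The groups were clearly apart, at a log2 fold change of -0.46 (SE 0.048; limma adjusted p = 3.5e-05). PHLDA3, which blocks recruitment of the kinase AKT to membranes, was at 125, 89.2 and 107 RPM in the controls and at 68.5, 89.0 and 76.6 in the knockdowns. Control replicate 2 and knockdown replicate 2 nearly met, and the log2 fold change was -0.45 (SE 0.12; limma adjusted p = 0.0096). The PHLDA3 call was lost with robust and with untrended eBayes (limma adjusted p up to 0.076; lowest over the alternatives 0.00035), and 20.0% of its 50-base words are shared with other genes.

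Among the genes of growth arrest and the stress kinases, 2 of 5 rose and 1 fell. BTG2 (chromosome 1, 203274619 to 203278730), an antiproliferative partner of the mRNA deadenylase, rose from 35.8, 29 and 30.6 RPM to 57.8, 62.1 and 59.5. The log2 fold change was 0.91 (SE 0.074; limma adjusted p = 5.3e-06), the second largest rise of the members. ZMAT3, an RNA-binding zinc finger protein that acts on splicing, went from 213, 183 and 184 RPM to 307, 291 and 293, a log2 fold change of 0.62 (SE 0.058; limma adjusted p = 1.4e-05).

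The polo-like kinases PLK2 and PLK3, which act in stress checkpoints, were at 276 to 322 RPM and 67.8 to 74.6 RPM in the controls. PLK2 was at 313 to 330 RPM in the knockdowns, overlapping the controls, at a log2 fold change of 0.12 (limma adjusted p = 0.099). It passed the test in a pair of alternatives (lowest adjusted p 0.011, without control replicate 1; highest 0.32). PLK3 was at 57.9 to 63.9 RPM in the knockdowns, below every control, at a log2 fold change of -0.24 (SE 0.056; limma adjusted p = 0.0050). With the GC and length trend removed, the PLK3 value was -0.09 (limma adjusted p = 0.095, the highest over the alternatives; lowest 0.0020). GADD45A, a stress sensor that binds PCNA and damage kinases, was at 38.4, 32.9 and 41.0 RPM in the controls and at 30.9, 43.6 and 39.1 in the knockdowns. The GADD45A groups overlapped fully, and its log2 fold change was 0.01 with a wide 95% interval of -0.25 to 0.27.

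Of the 4 genes of DNA repair and nucleotide supply 3 rose and 1 was not called. RRM2B, the p53-induced subunit of ribonucleotide reductase that supplies DNA building blocks to resting cells, was at 121, 120 and 115 RPM in the controls and at 161, 156 and 151 in the knockdowns. The rise was 0.39 on the log2 scale (SE 0.044; limma adjusted p = 4.8e-05). DDB2 and XPC, which find bulky lesions at the start of nucleotide excision repair, had log2 fold changes of 0.35 (SE 0.069; limma adjusted p = 0.0022) and 0.31 (SE 0.050; limma adjusted p = 0.00064). DDB2 was at 32.8, 28.5 and 29.8 RPM in the controls and at 39.6, 35.8 and 40.6 in the knockdowns. XPC was at 52.8, 54.0 and 54.7 RPM in the controls and at 64.4, 65.4 and 70.1 in the knockdowns, and 30.4% of its exon bases lie opposite exons of another gene. Since 28.6% of its 50-base words are shared with other genes, part of the XPC reads is uncertain. In both genes every knockdown library was above every control. POLH, the polymerase that copies past ultraviolet lesions, was at 30.6 to 32.3 RPM and 31 to 35.4 RPM, at a log2 fold change of 0.09 (95% interval -0.05 to 0.23; limma adjusted p = 0.28).

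All 5 genes of redox control, metabolism and stress signalling rose. The sestrins SESN1 and SESN3 restrain the growth kinase mTORC1 and limit oxidative damage. SESN1 was at 21.2, 17.5 and 19.5 RPM in the controls and at 30.5, 28.7 and 29.7 in the knockdowns, a log2 fold change of 0.62 (SE 0.074; limma adjusted p = 8.5e-05). SESN3, which FOXO factors also drive, was at 43.1, 32.5 and 34.1 RPM in the controls and at 55.4, 47.2 and 50.4 in the knockdowns. The rise was 0.49 on the log2 scale (SE 0.098; limma adjusted p = 0.0023), and control replicate 1 stood above the other controls.

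GDF15, a secreted stress cytokine, was at 171, 110 and 147 RPM in the controls and at 188, 291 and 229 in the knockdowns. Its libraries were the most spread of all members, and the log2 fold change was 0.73 (SE 0.16; limma adjusted p = 0.0044). FDXR, the mitochondrial ferredoxin reductase, was at 27.1, 17.6 and 22.6 RPM in the controls and at 28.1, 36.7 and 32.1 in the knockdowns, at a log2 fold change of 0.54 (SE 0.14; limma adjusted p = 0.0095). Control replicate 1 and knockdown replicate 1 lay close together in both genes. GDF15 lost its call with robust eBayes (limma adjusted p = 0.080; lowest over the alternatives 9.1e-07), and FDXR with robust and with untrended eBayes (limma adjusted p up to 0.066; lowest 9.3e-06). TP53I3, a quinone oxidoreductase, was at 51.9, 48.5 and 49.0 RPM in the controls and at 54.4, 58.2 and 60.5 in the knockdowns, a log2 fold change of 0.21 (SE 0.055; limma adjusted p = 0.011). Without knockdown replicate 3 its call was lost (limma adjusted p = 0.054), and with the GC and length trend removed its value was 0.34 (limma adjusted p = 2.0e-05).

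The 3 members with the widest spread shared an order of libraries. GDF15, FDXR and PHLDA3 were each highest in replicate 1 and lowest in replicate 2 among the controls, and lowest in replicate 1 and highest in replicate 2 among the knockdowns. Both orders together were seen in 5 of the 31 members, the others being BTG2 and PLK3 with a GC content of 50.3% and 61.2%. The control order by itself was seen in 17 members, among them SESN3 and MDM2 with a GC content of 37.1% and 41.9%. Among the knockdowns, SESN3 and MDM2 were highest in replicate 1. The knockdown order by itself was seen in 8. The share of all genes tested with these orders was not counted. Control replicate 1 was highest in 19 members, and in 36.3% of all genes tested. The longest transcripts of GDF15, FDXR and PHLDA3 have a GC content of 62.9%, 61.8% and 59.6%, against a median of 47.1% for the members and 47.5% for the genes tested. Removal of the GC and length trend lowered their pooled within-group SD on the log2 scale from 0.318 to 0.182, from 0.258 to 0.148 and from 0.219 to 0.150. In that fit the log2 fold changes were 0.95 for GDF15 (SE 0.087), 0.70 for FDXR (SE 0.081) and -0.32 for PHLDA3 (SE 0.075). All 3 passed the test there, with limma adjusted p-values of 9.1e-07, 9.3e-06 and 0.0033. Among the members as a whole the removal lowered the SD in 15 and raised it in 15 (1 was equal to 3 decimals), with rises in SPATA18 (0.144 to 0.161) and MDM4 (0.134 to 0.150). PLK3 and TP53I3, with a GC content of 61.2% and 58.4%, had small SDs before the removal (0.073 and 0.067). After it their SDs were 0.037 and 0.035. The part of GC content in the spread was not tested. GADD45A, with a GC content of 51.5%, kept an SD of 0.205 after the removal (0.213 before). The median within-group SD was 0.084 for the members and 0.109 for the genes tested.

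**Figure D3:**
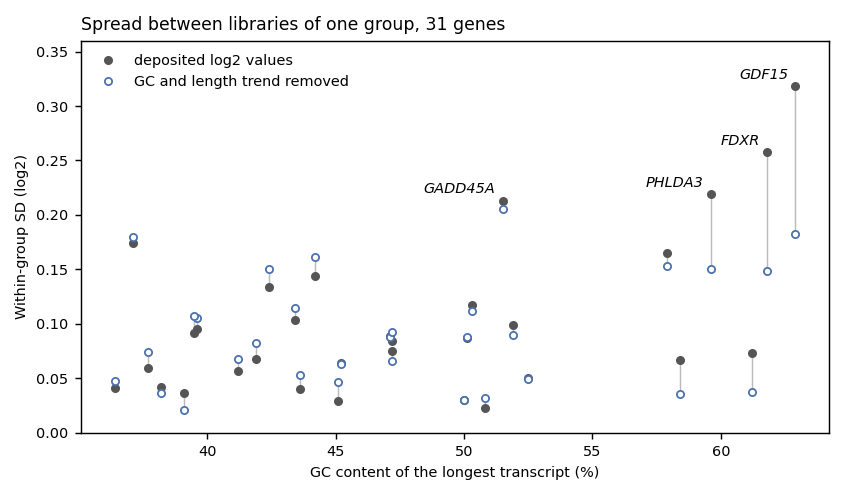
Pooled within-group SD of the log2 values of each of the 31 genes against the GC content of its longest transcript, before (filled) and after (open) removal of the GC and length trend. GDF15, FDXR and PHLDA3 lie at the upper right and move down by the removal, while GADD45A stays near 0.205.

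All 5 members with a close match to the p53 element in a promoter window rose. These were MDM2, FAS, DDB2, AEN and FDXR, printed above, with log2 fold changes between 0.30 and 0.80. Of the 17 members with a window but no such pair, 12 rose, 2 fell and 3 were not called. Of the 9 members for which no window was matched, 3 rose, 2 fell and 4 were not called. The looser matches belonged to GDF15, SESN1 and ZMAT3, which rose, and to PLK2, which was not called. Of all genes tested, 17.5% rose and 23.5% fell. The share of rises among all genes with such a pair was not counted, and the mismatch limit was set after the counts at each limit had been seen. The counts here are small and are given as a description.

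A wider list of 64 other direct p53 targets, also drawn up with earlier results known, had more rises than falls. Of its genes 61 were tested. Of these 29 rose (47.5%), 12 fell (19.7%) and 20 did not pass the test, with a median log2 fold change of 0.18. Of all genes tested 17.5% rose and 23.5% fell (22.2% and 26.4% of the protein-coding genes), so the share that fell was near the background. The largest rises were those of TSPAN11 (1.64, SE 0.16), the ceramidase gene ACER2 (1.55, SE 0.098), the antiviral TRIM22 (1.24, SE 0.062), FAM212B (1.03, SE 0.062) and CYFIP2, of the actin-regulating WAVE complex (0.89, SE 0.064), all on the log2 scale. ACER2 went from 2.69 ± 0.0888 to 7.91 ± 0.182 RPM and TRIM22 from 30 ± 2.48 to 70.6 ± 0.571 (SD, n = 3). The TSPAN11 value rests on 51 to 177 reads per library and that of ACER2 on 79 to 223. The largest falls were those of the calcium channel gene ORAI3 (-0.75, SE 0.11), ABHD4 (-0.44, SE 0.052), IER5 (-0.29, SE 0.075), the cytokine gene LIF (-0.27, SE 0.053) and SERTAD1 (-0.27, SE 0.071). Limma adjusted p-values of these falls ran up to 0.010, for SERTAD1, and the calls of IER5 and SERTAD1 were lost with untrended eBayes (limma adjusted p = 0.056 and 0.058). Without control replicate 3, SERTAD1 also lost its call (limma adjusted p = 0.052). CDKN1A, the CDK inhibitor p21 and the best known target, had a log2 fold change of 0.90 (SE 0.060), close to that of BTG2.

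Proteins that modify p53 or act beside it were counted as a separate list. Of 39 listed, 37 were tested, and 11 rose (29.7%), 4 fell (10.8%) and 22 did not pass, with a median of 0.05. Of all genes tested 17.5% rose and 23.5% fell, and of the protein-coding genes 22.2% and 26.4%. The share of the list that rose was thus somewhat above the background and the share that fell below it. No test of the list was made, and these counts are no result about it. The rises were led by the acetyltransferase KAT8 (0.69, SE 0.068), the kinases DYRK2 (0.62, SE 0.049) and HIPK2 (0.45, SE 0.049), which phosphorylate p53, and DAXX (0.54, SE 0.040), a chaperone that binds MDM2. The acetyltransferase EP300 came next (0.25, SE 0.047). The 4 that fell were the checkpoint kinase CHEK1 (-0.52, SE 0.074), the methyltransferases EHMT2 (-0.26, SE 0.052) and PRMT5 (-0.23, SE 0.055), and the deacetylase SIRT1 (-0.24, SE 0.065). HIPK2 went from 336.9 ± 17.4 to 459.3 ± 18.5 RPM (SD, n = 3). CHEK1 went from 22 ± 1.12 to 15.4 ± 1.17 RPM. The SIRT1 call was lost without control replicate 3 (limma adjusted p = 0.067). With the replicate number as a block, 7 rather than 11 of these genes rose, and 2743 rather than 3325 of all genes tested.

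**Figure D4:**
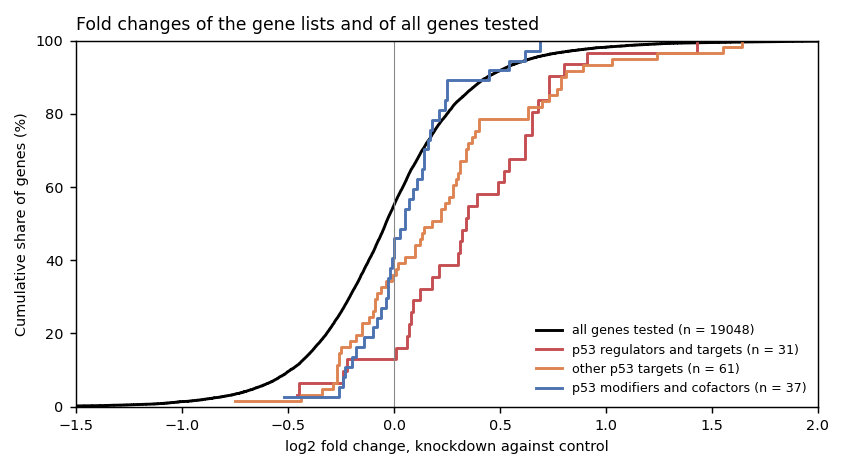
Cumulative share of genes (%) against log2 fold change for all genes tested, the 31 p53 regulators and targets, the other p53 targets and the p53 modifiers and cofactors. The curve of the 31 genes lies to the right, with a median of 0.34, followed by 0.18 for the other targets, 0.05 for modifiers and cofactors and -0.04 for all genes tested.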

How the data were processed

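PolyA RNA of 6 libraries was measured, 3 per group; group and replicate came from the sample labels, and columns were matched by replicate number and siRNA name. Bowtie2, featureCounts and hg19 are named in the submitters' processing notes, without settings. The authors deposited log2 CPM values; their form, an offset of 0.5 reads on an effective library size, was worked out from the values, which gave whole reads for 100.0% of them (tolerance 0.01). RPM are those reads without the offset. Strand use is not given in the sources used here.

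Limma 3.58.1 (R 4.3.3; trended eBayes, group as sole term, two-sided) was run on the deposited log2 values of 19048 genes with a mean of at least 10 normalized reads; fold changes are on that scale. The fit was tested on simulated counts. Every member is named, and of the other lists the 5 largest rises and falls with an adjusted p under 0.05 and groups apart. Members and lists were chosen with earlier results of these data known. The RNA of p53 itself is not reported here. Exon lengths, shared words, GC content and annotation came from GENCODE 29 (GRCh38), matched by gene ID, and no coordinates were converted. Table coordinates are hg19. Alternatives were other offsets, filters, scalings, variance models, thinning, a fold threshold, each library left out and a replicate block; the GC and length correction was added after the data had been seen. A count of 0 allows up to 3 reads, 0.0596 to 0.134 RPM, for counting error only.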

Additional observations from a re-analysis of the deposited data

How the results depend on the processing

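Of the 31 members, 20 kept direction and call in all 20 other fits, 7 lost their call in at least 1, 2 gained one and 2 reversed. GADD45A, not called in any of them, was -0.08 without control replicate 2, -0.10 without knockdown replicate 2 and -0.02 without knockdown replicate 3 (range with a library left out -0.10 to 0.15), and FBXO22 was -0.08 after the GC and length correction; the cause was not tested. With a library left out, 19 to 21 members rose and 4 fell in each fit, 27 to 30 other targets rose and 8 to 12 fell, 8 to 9 modifiers rose and 3 to 5 fell, 2599 to 3100 of all genes rose and 3204 to 4313 fell, and the lncRNA ran from -2.97 to -2.77. A log2 fold change of at least 0.5 left, by construction, 12 members higher and 0 lower (limma), 13 and 1 other targets, 3 and 1 modifiers, and 1185 and 1458 of all genes. Untrended eBayes left 2 members and 6 other targets lower, and 3703 of all genes, against 4480 in the main fit. The GC and length correction gave 7 modifiers lower, and 4462 of the 18546 genes it covered. The cause was not tested.

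Deviations of libraries with equal replicate numbers from their group means had correlations of -0.15, -0.18 and 0.07 over the genes tested. With 3 libraries per group, these values cannot decide whether equal numbers mark a shared origin. With the replicate block 20 members rose and 4 fell, 28 other targets rose and 8 fell, and 7 modifiers rose and 4 fell. Of all genes tested 2743 rose and 3711 fell in that fit, against 3325 and 4480 in the main fit. Depth limits TNFRSF10C most among the members (149 reads in the shallowest case).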
